A study of Mus musculus with 3 samples.

Results

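The genes that encode selenoproteins and the machinery that inserts selenocysteine were examined in MC3T3-E1 cells, a wild-type mouse preosteoblast line derived from calvaria. The 34 genes were chosen by name, as the known mouse selenoproteins (24 genes) and the factors that make, insert or handle selenium (10 genes). Of the 34 genes, 31 were among the 15287 genes listed, and 29 passed the filter on low values, which asked for 1 FPKM or more in any library. RNA-seq was performed on 3 libraries, 1 for each condition. CTL cells had no treatment. Cells of the Ti library were exposed to Ti particles (10 μg/cm²) over 24 h, and those of the Ti+Se-Met library to the same particles plus 5 μM Se-Met (selenomethionine) over 24 h. A library of cells given Se-Met without particles was not analysed here, so no value below shows Se-Met alone. With 1 library per condition, no difference had a replicate check, and the state of a culture and its treatment cannot be told apart.

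Selenoproteins carry selenocysteine, an amino acid with selenium in the place of the sulfur of cysteine. It is encoded by the codon UGA, which is a stop codon in other mRNAs. The ribosome reads it as selenocysteine when a hairpin in the 3′ untranslated region, the SECIS element, recruits the binding protein SECISBP2, the elongation factor EEFSEC and the selenocysteine tRNA. Most selenoproteins with a known function are oxidoreductases that remove peroxides, reduce thioredoxin or act on disulfides in the endoplasmic reticulum, and Se-Met is a dietary form from which cells can release selenium for this synthesis. When selenium is scarce, the UGA of some selenoprotein mRNAs can be taken as a premature stop, and those mRNAs are then degraded by nonsense-mediated decay.

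The selenocysteine codon was located in the reference transcript of all 24 selenoprotein genes (GENCODE M21 on GRCm38, 1-based coordinates). The submitters' processing notes name mm9, so these positions describe the reference annotation and not the deposited values. In 22 genes the transcript held 1 in-frame codon of this kind. Selenop held 10, of which the first is shown, and Dio2 held 2. The base after the codon, which is known to affect how efficiently UGA is recoded, was G in 12 of 24 genes, C in 6, A in 4 and T in 2. The coding sequences around the codon are shown for 12 genes whose values are given in full below, with the codon in capitals and written as TGA. All are exonic and coding, and in the 3 thioredoxin reductases and in Selenos the sequence ends at the true stop codon.
Gpx1 (chr9:108339451-108339453, plus strand): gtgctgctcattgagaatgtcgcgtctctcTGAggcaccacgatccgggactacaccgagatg
Gpx4 (chr10:80054737-80054739, plus strand): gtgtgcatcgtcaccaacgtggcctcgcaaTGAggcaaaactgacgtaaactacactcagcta
Txnrd1 (chr10:82896037-82896039, plus strand): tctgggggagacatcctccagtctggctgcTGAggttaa
Txnrd2 (chr16:18477772-18477774, plus strand): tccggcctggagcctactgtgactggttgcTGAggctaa
Txnrd3 (chr6:89674789-89674791, plus strand): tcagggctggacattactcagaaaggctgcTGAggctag
Dio3 (chr12:110279739-110279741, plus strand): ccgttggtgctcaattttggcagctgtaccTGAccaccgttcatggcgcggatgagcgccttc
Selenoh (chr2:84670381-84670383, minus strand): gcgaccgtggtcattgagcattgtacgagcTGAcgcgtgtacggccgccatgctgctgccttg
Selenow (chr7:15920464-15920466, minus strand): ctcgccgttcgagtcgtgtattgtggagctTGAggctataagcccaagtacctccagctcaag
Msrb1 (chr17:24740158-24740160, plus strand): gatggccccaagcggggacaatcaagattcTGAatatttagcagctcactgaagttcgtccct
Selenos (chr7:66088844-66088846, plus strand): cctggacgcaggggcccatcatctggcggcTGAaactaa
Selenop (chr15:3274848-3274850, plus strand): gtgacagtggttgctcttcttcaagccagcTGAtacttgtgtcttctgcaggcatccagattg
Sephs2 (chr7:127273731-127273733, minus strand): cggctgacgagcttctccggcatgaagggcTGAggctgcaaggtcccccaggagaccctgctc
In Txnrd1, Txnrd2, Txnrd3, Selenok, Selenos and Selenoo the codon lay within the last 3 codons before the stop, so these 6 proteins carry selenocysteine at their carboxyl end. In Gpx1 it was codon 47 of 201, in Selenow codon 13 of 88 and in Sephs2 codon 63 of 452, so that a stop there would remove most of the protein.

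Estimated from the values, the depth was about 14200000 fragments in CTL, 14700000 in Ti and 10600000 with Se-Met, and 13676 to 14467 genes were above 0 in a library. Differences below are in log2(FPKM + 1), where FPKM is the number of fragments scaled to the transcript length and to the fragments mapped in the library. The added 1 makes the difference of a low gene smaller. Folds are ratios of FPKM, with a 95% exact conditional binomial interval on the estimated fragments, which covers counting error only and compares libraries, not conditions. Differences of 1.5-fold or more were counted on the log2(FPKM + 1) scale over the 11137 genes that passed the filter.

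The summed level of the selenoproteins was higher in Ti than in CTL, and most of the gain came from 3 genes. The 24 genes added up to 1624 FPKM in CTL, 2227 in Ti and 2079 with Se-Met added, or 0.362%, 0.423% and 0.404% of all FPKM. Gpx4, which reduces phospholipid hydroperoxides in membranes, was the highest of them in each library. Of the 602 FPKM by which the sum was higher in Ti than in CTL, Gpx4 gave 316, Gpx1 125 and Txnrd1 101. Without these 3, which were singled out after their values were seen, the other 21 genes added up to 1065, 1125 and 1113 FPKM in the same order. These sums were 0.237% of all FPKM in CTL, 0.214% in Ti and 0.216% with Se-Met added. The share was lower in Ti although the sum was higher, because all FPKM added up to 448285 in CTL and 526017 in Ti. Leaving out the genes with the largest rise lowers the remaining gain by construction. The 5 highest genes held 72.1%, 77.3% and 75.9% of the sum over the 24 genes. Of these, 4 genes, Gpx4, Selenof, Selenow and Gpx1, were among the 5 highest in all 3 libraries. Selenot took the fifth place in CTL and Txnrd1 in both other libraries. The 10 machinery and handling genes were far lower, with sums of 90.5, 106.0 and 96.0 FPKM. Dio1, Gpx2 and Selenov were not listed. Gpx3, the secreted plasma peroxidase, did not reach the filter at 0.05, 0.10 and 0 FPKM, and neither did Selenbp1, a methanethiol oxidase that binds selenium, at 0.23, 0.04 and 0 FPKM.

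**Figure D1:**
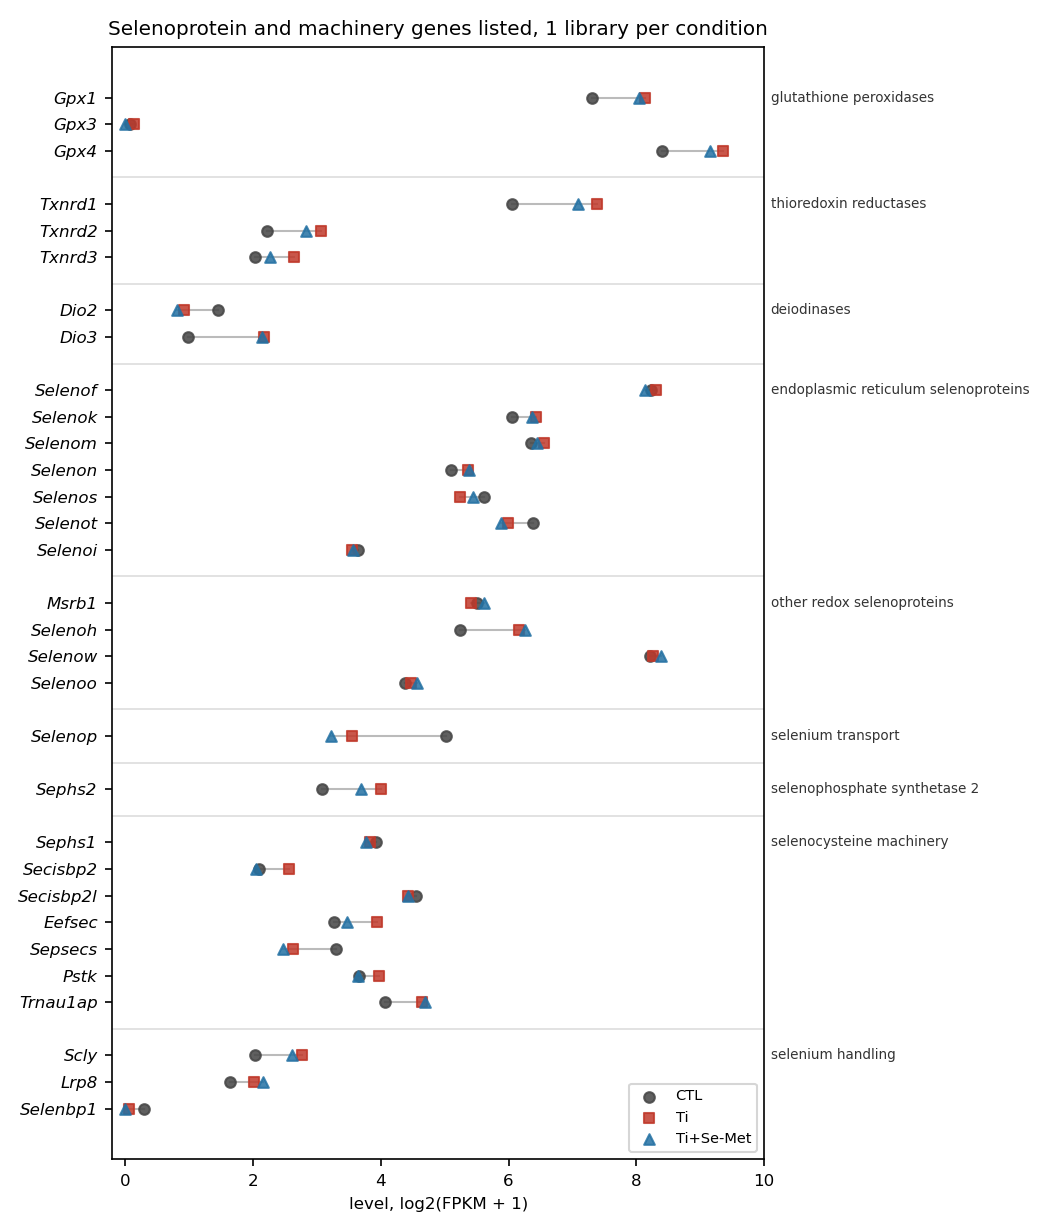
Levels of the 31 listed genes in the 3 libraries, as log2(FPKM + 1) on the horizontal axis, grouped by role, with a circle for CTL, a square for Ti and a triangle for Ti+Se-Met, and a line joining the lowest and highest of the 3. In the 29 genes that passed the filter, Ti and Ti+Se-Met lay within 1.5-fold of each other on this scale. Selenop went from 31.6 FPKM in CTL to 10.7 in Ti, and Txnrd1 from 65.2 to 166.

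To ask how Ti particles bear on these genes (values are given throughout in the order CTL, Ti, Ti+Se-Met), the Ti library was first compared with CTL. Of the 29 genes that passed the filter, 10 were at least 1.5-fold higher in Ti, and 2 were lower to that extent. Over all genes that passed, 15.5% were higher and 11.3% lower by this measure. The higher genes were Gpx1, Gpx4, Txnrd1, Txnrd2, Txnrd3, Dio3, Selenoh, Sephs2, Eefsec and Scly, and the lower genes were Selenop and Sepsecs. Past 2-fold were 3 of the 29, Txnrd1 and Dio3 upwards and Selenop downwards, where 7.26% of all genes passed in either direction. Dio3 passed the filter only through the libraries in which it was high, which favours a difference, and without it 9 genes were higher past 1.5-fold. The median difference was 0.30 over the 29 genes and 0.08 over all genes.

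Both glutathione peroxidases that passed the filter were at least 1.5-fold higher in Ti than in CTL, where 15.5% of all genes were. Gpx1, the cytosolic enzyme that reduces hydrogen peroxide, reached 157 FPKM in CTL, 282 in Ti and 261 with Se-Met added. Its difference between Ti and CTL was 0.84, a fold of 1.80 (1.70 to 1.90). Gpx4 was at 338, 654 and 569 FPKM, with a difference of 0.95 and a fold of 1.94 (1.86 to 2.01). For both genes CTL was the lowest library, and the Ti+Se-Met value lay between CTL and Ti.

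The thioredoxin reductases use NADPH to keep thioredoxin reduced. As deposited, 3 of 3 genes were at least 1.5-fold higher in Ti than in CTL, where 15.5% of all genes were. Txnrd1 and Txnrd2 stayed past 1.5-fold under each scaling used below, while Txnrd3 passed as deposited only. Txnrd1, the cytosolic enzyme, reached 65.2 FPKM in CTL, 166 in Ti and 135 with Se-Met added, with a difference of 1.34 between Ti and CTL and a fold of 2.55 (2.44 to 2.66). The mitochondrial enzyme Txnrd2 was lower in level, at 3.67, 7.35 and 6.13 FPKM, and its fold of 2.003 (1.56 to 2.62) was less precise. Txnrd3, which is known best from testis, stood at 3.08, 5.22 and 3.84 FPKM, with a fold of 1.70 (1.33 to 2.16). In all 3 genes the Ti+Se-Met value fell between CTL and Ti.

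The deiodinases, which add or remove activity of thyroid hormones, were both near the filter. Dio3, the inactivating enzyme, reached 0.97 FPKM in CTL, 3.53 in Ti and 3.44 with Se-Met added, which rest on an estimated 26, 98 and 69 fragments. It passed the filter through the particle-treated libraries only, and its fold between Ti and CTL was 3.64 (2.34 to 5.85). Dio2, the activating enzyme, was at 1.75, 0.90 and 0.76 FPKM and passed through CTL only. Its FPKM fold between Ti and CTL was 0.514 (0.383 to 0.685), but with the added 1 the difference was -0.53 and did not reach 1.5-fold.

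All 7 selenoproteins of the endoplasmic reticulum passed the filter, and as deposited 0 of 7 reached 1.5-fold between any pair of libraries. Over all genes, 15.5% were higher and 11.3% lower by 1.5-fold in Ti than in CTL. Rescaled to TPM, Selenos (-0.60) and Selenot (-0.61) passed downwards in Ti against CTL, and Selenot (-0.69) in Ti+Se-Met against CTL. Between Ti and CTL, the intervals of Selenos and Selenot lay below 1 and that of Selenok above 1 under each scaling used below. Most genes had an interval that left out 1 in this comparison. Of all genes with a length, 42.8% lay above 1 and 32% below as deposited, and 28% and 46.6% with TPM. Selenof, a partner of the folding sensor UGGT, was at 298, 315 and 280 FPKM. Selenot, a thioredoxin-like membrane protein, was at 82.0, 62.7 and 57.9 FPKM, and Selenos, a part of the machinery that exports misfolded proteins, was at 47.9, 36.9 and 42.5. The differences of Selenot and Selenos between Ti and CTL were -0.38 and -0.37, the lowest of the 7. Selenok, which acts with the palmitoyltransferase ZDHHC6, had the highest difference at 0.38, from 65.2 FPKM in CTL to 84.9 in Ti and 81.8 with Se-Met added. Between them lay the thioredoxin-like Selenom, the calcium-linked Selenon and Selenoi, an ethanolamine phosphotransferase, with differences of 0.20, 0.27 and -0.10.

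Of the other redox selenoproteins, Selenoh alone passed 1.5-fold, 1 of the 4 that passed the filter. Over all genes, 15.5% were higher and 11.3% lower by 1.5-fold in Ti than in CTL. Selenoh, a nucleolar thioredoxin-like protein, reached 36.8 FPKM in CTL, 70.5 in Ti and 75.4 with Se-Met added, with a fold of 1.92 (1.66 to 2.21) between Ti and CTL. Msrb1, which repairs oxidised methionine, was at 44.5, 41.7 and 48.0 FPKM. Selenow, a small protein abundant in muscle, was at 296, 305 and 333 FPKM, and the mitochondrial protein Selenoo was at 19.8, 21.2 and 22.7. For these last genes the Ti and CTL values differed by at most 0.09 on the log2 scale in size, and the interval of each fold included 1 as deposited. Rescaled to TPM or by the upper quartile, the intervals of Msrb1 and Selenow lay below 1, where those of 46.6% and 40.6% of all genes did.

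Selenop moved the other way. It encodes the secreted protein that carries selenium in plasma and delivers it to other cells. Selenop reached 31.6 FPKM in CTL, 10.7 in Ti and 8.31 with Se-Met added. Its difference between Ti and CTL was -1.48, a fold of 0.338 (0.295 to 0.386), the lowest of the 29 genes. The gene Ccdc152 lies on the opposite strand and overlaps it, at 0.98, 0.26 and 0 FPKM. Most markers of the osteoblast lineage that passed the filter were also lower in Ti. Col1a1 reached 1333 FPKM in CTL, 354 in Ti and 482 with Se-Met added, and 4 of the 5 osteoblast markers that passed were at least 1.5-fold lower in Ti than in CTL, where 11.3% of all genes were. Spp1 was the exception (1261, 3706 and 4659 FPKM), and Alpl (1.51, 0.20 and 0.20 FPKM) passed the filter through CTL only. Their part in the Selenop difference was not tested. In RNA from whole cultures, fewer cells of a kind and less RNA per cell cannot be told apart. Ibsp, Sp7 and Bglap, markers of later osteoblasts, were below 1 FPKM in all 3 libraries. Of 8 markers of blood, endothelial and epithelial cells, 5 were not listed and the others summed to 0.19, 0.49 and 0.72 FPKM.

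In the synthesis pathway of selenocysteine the steps differed in direction. Sephs2, itself a selenoprotein, makes the selenophosphate that donates selenium, and reached 7.51 FPKM in CTL, 15.0 in Ti and 11.9 with Se-Met added, with a fold of 1.997 (1.70 to 2.36) between Ti and CTL. Pstk phosphorylates the seryl-tRNA before selenium is added, and was at 11.7, 14.7 and 11.6 FPKM. Sepsecs, the synthase of the last step, was at 8.84, 5.18 and 4.55 FPKM, with a fold of 0.586 (0.515 to 0.666). The donor enzyme was thus higher in Ti and the synthase lower. Sephs1, a paralog of Sephs2 without selenocysteine, was at 14.2, 13.2 and 12.7 FPKM.

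Of the factors that act at the ribosome, Eefsec alone passed 1.5-fold between Ti and CTL on the log2(FPKM + 1) scale as deposited. Over all genes, 15.5% were higher and 11.3% lower by this measure. Rescaled to TPM or by the upper quartile, Eefsec did not pass, with differences of 0.47 and 0.55. Eefsec reached 8.61 FPKM in CTL, 14.4 in Ti and 10.1 with Se-Met added, with a fold of 1.67 (1.45 to 1.93). Secisbp2 was at 3.28, 4.92 and 3.16 FPKM, a difference of 0.47 on the log2 scale between Ti and CTL, and its relative Secisbp2l was at 22.6, 20.6 and 20.6. Trnau1ap, which binds the selenocysteine tRNA, was at 15.8, 24.1 and 24.8 FPKM. Its difference of 0.58 was just under 1.5-fold, while its FPKM fold, without the added 1, was 1.53 (1.29 to 1.82). Scly, the lyase that frees selenium from selenocysteine, was at 3.08, 5.80 and 5.11 FPKM, with a fold of 1.88 (1.45 to 2.45). Lrp8, a receptor for the Selenop protein, was at 2.13, 3.06 and 3.45 FPKM, with a difference of 0.38.

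**Figure D2:**
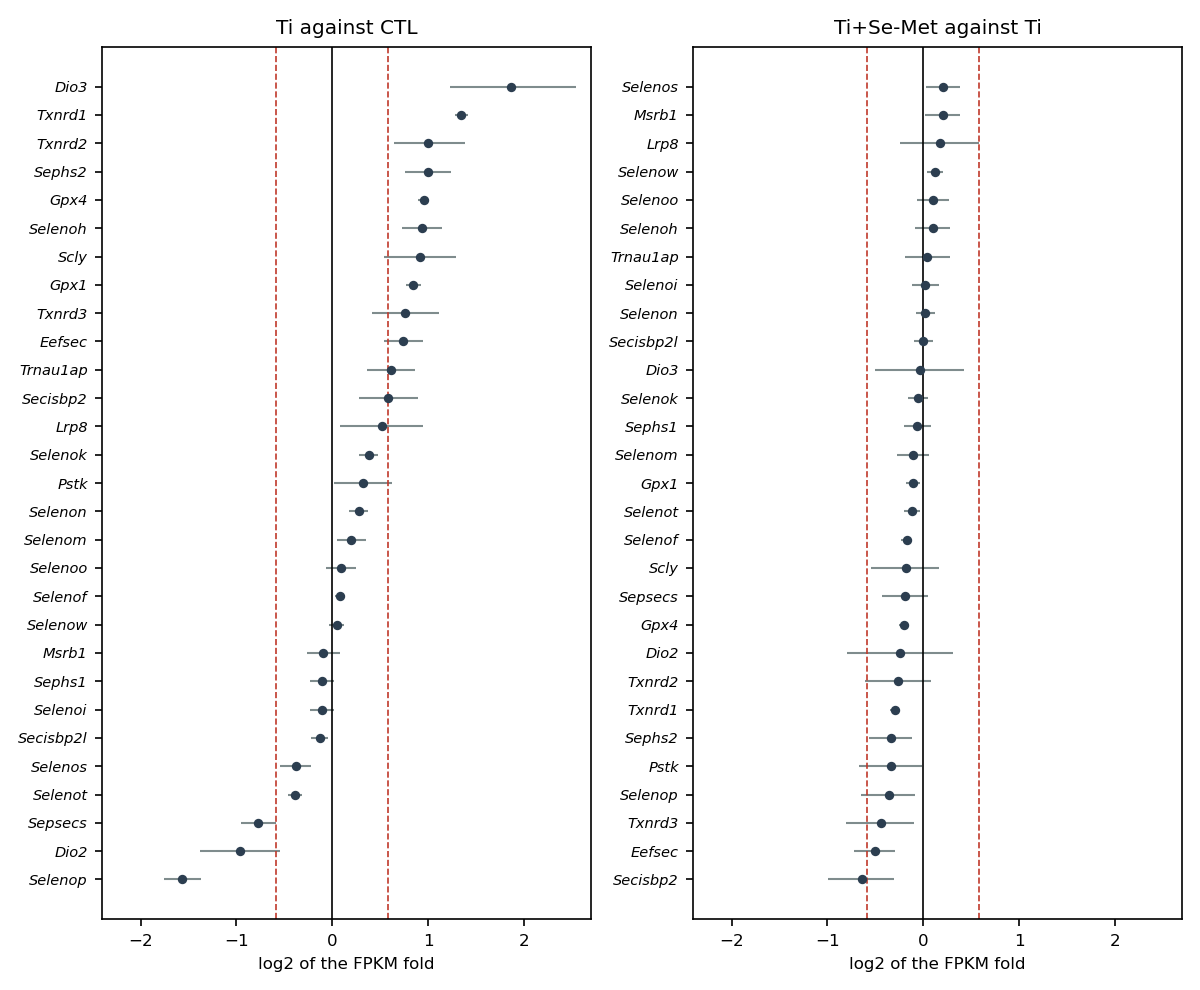
Log2 of the FPKM fold of the 29 genes that passed the filter, Ti against CTL on the left and Ti+Se-Met against Ti on the right, each panel in its own order, with bars for the 95% counting interval and dashed lines at 1.5-fold in FPKM without the added 1. On the left the points run from a fold of 0.338 for Selenop to 3.64 for Dio3, and on the right from 0.642 for Secisbp2 to 1.15 for Selenos.

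The call of 10 higher and 2 lower genes depended on how the libraries were scaled, since the FPKM sums of the libraries differed (448285 in CTL and 526017 in Ti). Rescaled to TPM, 7 of the 29 were higher by 1.5-fold or more and 5 lower, where 7.51% and 19.6% of all genes were, and the medians became 0.09 for the 29 genes and -0.13 for all genes. Txnrd3, Eefsec and Scly no longer passed, while Dio2, Selenos and Selenot passed downwards. Scaled by the median of ratios the counts were 9 and 2, where 13.6% and 12.9% of all genes passed. By the upper quartile they were 8 and 3, where 10% and 15.8% of all genes passed. The 12 genes that passed as deposited kept their sign under each scaling, while Selenof, Selenom, Selenow and Selenoo changed sign.

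**Figure D3:**
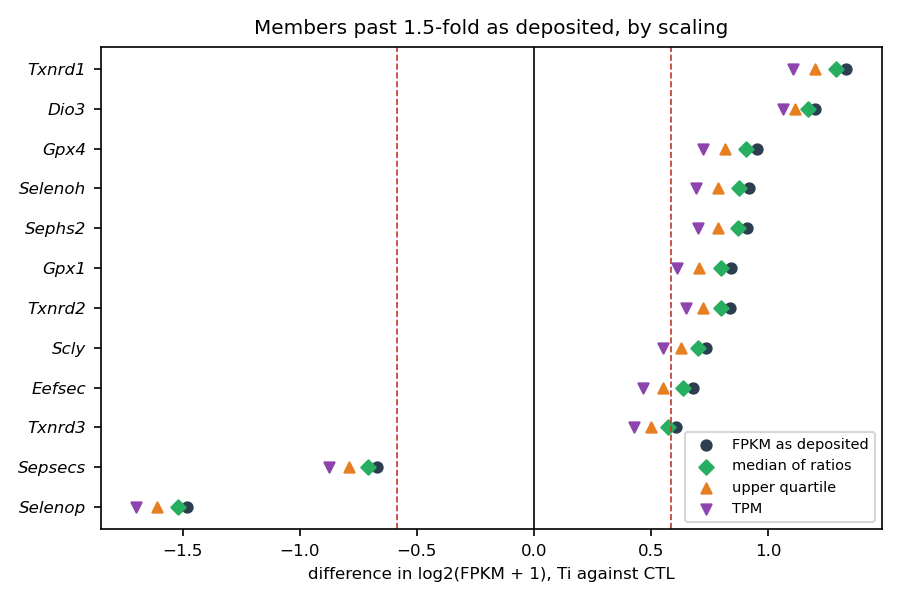
Difference in log2(FPKM + 1) between Ti and CTL for the 12 genes past 1.5-fold as deposited, under 4 scalings of the libraries, with dashed lines at 1.5-fold. Each scaling moved the points to the left of the deposited values, and Txnrd1 at 1.34 and Selenop at -1.48 stayed at the ends.

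The Ti+Se-Met library was then set beside CTL, which is the control of both comparisons. Of the 29 genes, 8 were at least 1.5-fold higher in Ti+Se-Met, where 10.4% of all genes were, and 3 were lower, where 11.8% of all genes were. Dio3 and Dio2 again passed the filter only through the libraries in which they were high. The higher genes were Gpx1, Gpx4, Txnrd1, Txnrd2, Dio3, Selenoh, Sephs2 and Trnau1ap, and the lower were Dio2, Selenop and Sepsecs. Past 2-fold were 4, where 5.96% of all genes passed in either direction. These were Txnrd1 with a fold of 2.07 (1.98 to 2.18), Dio3 with 3.55 (2.23 to 5.82), Selenoh with 2.05 (1.76 to 2.38) and Selenop with 0.263 (0.221 to 0.310). Txnrd3, Eefsec and Scly, past 1.5-fold in Ti, had differences of 0.25, 0.21 and 0.58 here. The interval of the fold included 1 for Txnrd3 under each scaling. That of Eefsec included 1 except with the median of ratios, where it was 1.01 to 1.41. The median was 0.18 over the 29 genes and 0.01 over all genes. Rescaled to TPM, the counts were 3 higher and 4 lower, where 5.85% and 19.2% of all genes passed, and the medians -0.01 and -0.17. Gpx1, Gpx4, Txnrd2, Sephs2 and Trnau1ap then no longer passed, while Selenot passed downwards.

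**Figure D4:**
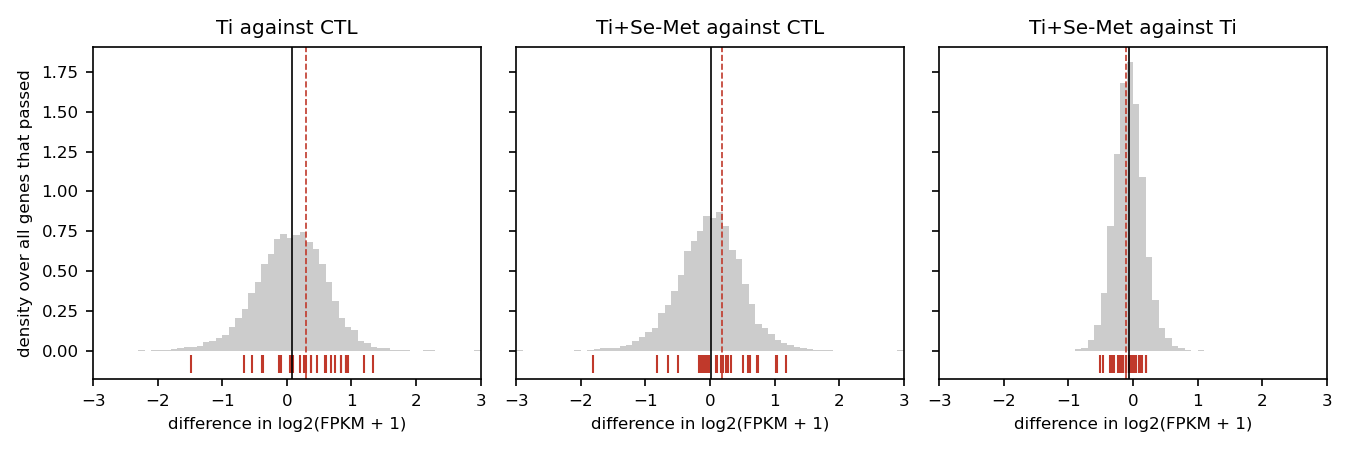
Histograms of the difference in log2(FPKM + 1) over the 11137 genes that passed the filter, for Ti against CTL, Ti+Se-Met against CTL and Ti+Se-Met against Ti, with 1 red tick below for each of the 29 selenoprotein and machinery genes, a solid line at the median of all genes and a dashed line at the median of the 29. The medians of the 29 genes were 0.30, 0.18 and -0.11, against 0.08, 0.01 and -0.06 for all genes.

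To see whether added selenium changed these mRNAs in cells given particles, Ti+Se-Met was compared with Ti. None of the 29 genes differed by 1.5-fold on the log2(FPKM + 1) scale (0 of 29). Over all genes, 2.14% were past 1.5-fold and 0.224% past 2-fold, in either direction. Without the added 1, Secisbp2 was lower by more than 1.5-fold, with an FPKM fold of 0.642. The differences ran from -0.51 for Secisbp2 to 0.20 for Selenos, and the median was -0.11, where all genes had -0.06. The level was lower in Ti+Se-Met for 19 of the 29 genes, higher for 9 and equal for Secisbp2l, and over all genes 6804 were lower and 4289 higher. With either the median of ratios or the upper quartile as the scale, 16 of the 29 were lower and 13 higher. The median over all genes was then -0.0017 and 0.0007, in that order.

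At the precision of counting alone, 11 of the 29 genes had an interval of the fold below 1 and 3 above 1. The shares over the 10919 genes with a length were 29.3% below and 15.7% above. This balance depended on the scaling, and with the median of ratios 20.1% of all genes lay below and 22.6% above, with 8 and 4 of the 29 genes. The 3 genes above 1 were Selenos with a fold of 1.15 (1.02 to 1.31), Msrb1 with 1.15 (1.01 to 1.30) and Selenow with 1.09 (1.03 to 1.15). They stayed above 1 under each of the 4 scalings. Below 1 under each scaling were 8 genes, Gpx4, Txnrd1, Txnrd3, Selenof, Selenop, Sephs2, Secisbp2 and Eefsec, while the call for Gpx1, Selenot, Selenoo and Pstk depended on the scaling. For the other 14 genes the interval included 1 under each scaling, among them Dio3 with a fold of 0.975 (0.707 to 1.34) and Selenoh with 1.07 (0.943 to 1.21), so that differences of this size were not detectable at this depth.

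The genes below 1 under each scaling came from several steps of the pathway. Their number is to be read against the shares of all genes given above. Among other machinery and handling genes, the intervals of Sephs1, Secisbp2l, Sepsecs, Trnau1ap, Scly and Lrp8 included 1 under each scaling. The folds of these ran from 0.878 for Sepsecs to 1.13 for Lrp8. Secisbp2 had the lowest fold at 0.642 (0.503 to 0.808), and its level of 3.16 FPKM in Ti+Se-Met was close to the 3.28 of CTL. Eefsec had a fold of 0.703 (0.605 to 0.815) and Sephs2 of 0.792 (0.676 to 0.925). Among the enzymes, Txnrd3 had a fold of 0.736 (0.571 to 0.936), Txnrd1 of 0.815 (0.784 to 0.846) and Gpx4 of 0.870 (0.840 to 0.902). Selenop, already low in Ti, had 0.778 (0.639 to 0.941). These folds were each less than 1.5-fold on the log2(FPKM + 1) scale, and without replicate libraries it is not known how they compare with the spread between cultures.

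Gpx1, Selenow, Selenoh and Msrb1 are genes whose mRNA is known to fall when selenium is scarce. Between Ti+Se-Met and Ti their differences were -0.11, 0.12, 0.10 and 0.20, with a median of 0.11. None of the 4 reached 1.5-fold, and the intervals of Selenow and Msrb1 lay above 1 under each scaling, while that of Selenoh included 1. Selenoo, with a difference of 0.10, had an interval that included 1 as deposited and with TPM. Of the glutathione peroxidases and thioredoxin reductases, Gpx4, Txnrd1 and Txnrd3 had an interval below 1 under each scaling, that of Txnrd2 included 1 under each, and that of Gpx1 was below 1 as deposited and with TPM only.

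The place of the selenocysteine codon was then set against the values, because decay of an mRNA at a premature stop usually needs an exon junction more than about 55 bases downstream. In the reference transcripts the codon lay over 55 bases before the last junction in 14 of the 24 genes, within 55 bases of it in 2 (Selenok and Msrb1) and after it in 6, and 2 genes, Dio3 and Sephs2, have 1 exon. Of the genes that passed the filter, the 10 with the codon over 55 bases before the junction had a median of 0.23 between Ti and CTL (-1.48 to 0.95), and the 6 with the codon after it had -0.01 (-0.53 to 1.34). With Se-Met added, the same classes had medians of -0.11 and -0.04 relative to Ti. The ranges of the classes overlapped in both comparisons. With the codon after the last junction, Txnrd1, Txnrd3 and Selenoo were higher in Ti than in CTL, and Dio2, Selenos and Selenoi lower. With the codon over 55 bases before it, Selenop and Selenot were lower. The others of that class were higher as deposited, among them Gpx4 and Selenoh at 342 and 266 bases. Selenop was placed by the first of its 10 codons and Dio2 by the first of its 2. A part of decay in these values was not tested.

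**Figure D5:**
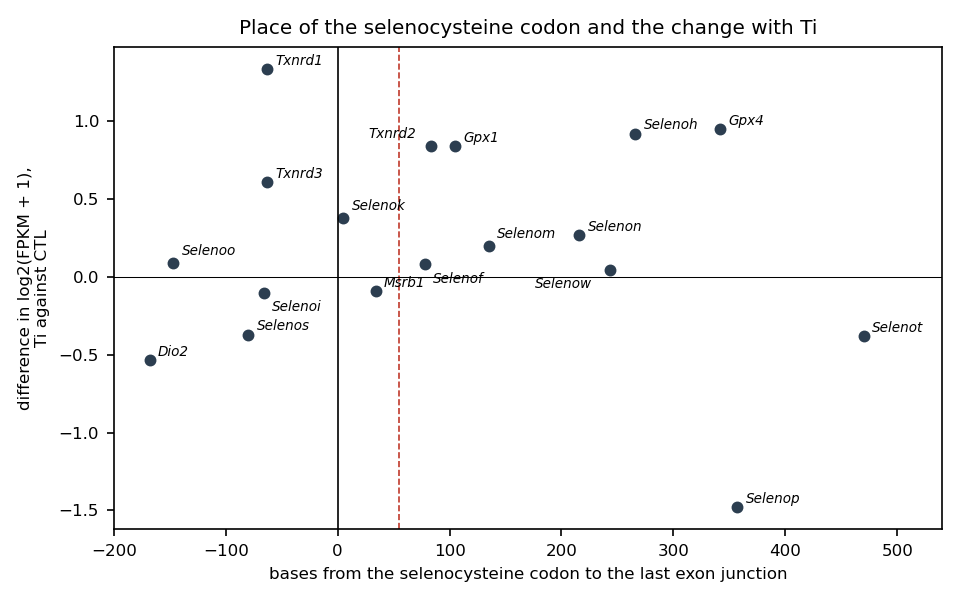
Bases from the selenocysteine codon to the last exon junction of the reference transcript (horizontal axis, negative where the codon lies after the junction) and the difference in log2(FPKM + 1) between Ti and CTL (vertical axis) for the selenoprotein genes that passed the filter and have more than 1 exon, with a dashed line at 55 bases. Txnrd1 at 1.34 lies left of the solid line and Selenop at -1.48 lies far to its right, and both classes spread on either side of 0.

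Genes that work with these proteins were described from lists, whose counts are to be read against the 15.5% of all genes that were higher in Ti and the 11.3% that were lower. Of 11 thioredoxin, peroxiredoxin and glutathione partners, 3 were at least 1.5-fold higher in Ti than in CTL and 0 lower, and the same 3 passed under each scaling. These were the peroxiredoxins Prdx1 (250, 555 and 450 FPKM) and Prdx6 (29.95, 61.7 and 45.7) and the mitochondrial thioredoxin Txn2 (67.0, 129.6 and 97.2). For each, the Ti+Se-Met value lay between the others, though picking genes high in Ti favours this. Of the 11 partners, 8 were lower in Ti+Se-Met than in Ti and 3 higher. Among the higher were Txn1 (200, 284 and 310 FPKM) and Prdx4 (60.1, 63.8 and 83.6). Between Ti+Se-Met and CTL, Txn1, Prdx1 and Prdx6 were at least 1.5-fold higher and Glrx lower as deposited. Over all genes, 10.4% were higher and 11.8% lower in that comparison. Of 7 targets of NRF2, the factor that turns on antioxidant genes and is known to act on Txnrd1, 5 were higher in Ti and 0 lower, with a median of 0.81. With TPM, where 7.51% of all genes were higher, the count was 4. The highest were Hmox1, which degrades haem (54.8, 204 and 96.5 FPKM), Srxn1, which restores peroxiredoxins (45.1, 91.2 and 83.2), and Nqo1, a quinone reductase (52.1, 97.6 and 91.6). When Se-Met was added, Hmox1 was lower than in Ti by more than 1.5-fold, with a difference of -1.07, and no other gene of the 7 lists of partner genes passed this threshold in that comparison. The binding motif of NRF2, searched as TGACNNNGC on both strands in promoters from 250 bases before to 50 after each RefSeq start site (GRCm38.p6), was found in 3 of the 33 genes with an entry, Txnrd1, Selenok and Lrp8. It was found in 12.4% of all 32851 promoters and for 14.0% of all genes. The promoter of Txnrd1 that holds it (chr10:82858956-82859255, plus strand, 1 of several start sites of the gene) is shown because Txnrd1 had the highest difference of the 29 genes between Ti and CTL, with the motif in capitals as its reverse complement.
Txnrd1 promoter: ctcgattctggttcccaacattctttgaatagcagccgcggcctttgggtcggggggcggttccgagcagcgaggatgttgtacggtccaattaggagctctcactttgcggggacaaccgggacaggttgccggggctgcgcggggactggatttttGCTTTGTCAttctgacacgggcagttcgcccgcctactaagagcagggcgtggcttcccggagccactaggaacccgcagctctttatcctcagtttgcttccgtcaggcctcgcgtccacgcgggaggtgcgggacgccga
The match begins at position -92 from the start site. It describes these letters only, and binding of NRF2 was not measured here.

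Some relatives of selenoproteins carry cysteine in the place of selenocysteine. Of 7 such genes 5 passed the filter, and 0 of these were at least 1.5-fold higher in Ti and 1 lower, Msrb3, a methionine sulfoxide reductase, at 85.1, 51.1 and 57.2 FPKM. Its relative Msrb2, at 8.83, 5.97 and 5.18 FPKM, was at least 1.5-fold lower only in Ti+Se-Met against CTL as deposited, with a difference of -0.67. Gpx7 and Gpx8, peroxidases of the endoplasmic reticulum, were at 22.9, 25.4 and 25.2 and at 86.7, 81.4 and 68.7 FPKM. Among the partners of selenoproteins in the endoplasmic reticulum, 1 of 6 was lower, Uggt2, a folding sensor, at 6.19, 2.56 and 2.47 FPKM, while Uggt1 stayed within 1.5-fold at 30.01, 22.4 and 28.4.

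Of 6 cofactors of the selenocysteine tRNA and the SECIS element, 3 were higher in Ti and 0 lower as deposited, and with TPM Sars1 alone passed. Sars1 (listed as Sars), the enzyme that charges the selenocysteine tRNA with serine, was at 63.0, 157 and 122 FPKM, with a difference of 1.30 between Ti and CTL. Eif4a3 and Rpl30, which bind SECIS elements, had differences of 0.79 and 0.61. Sars1 also charges the serine tRNAs, and Eif4a3 and Rpl30 act well beyond selenoprotein mRNAs. Of 8 genes of nonsense-mediated decay, Smg5 was higher (18.6, 49.1 and 37.3 FPKM) and Smg1, the kinase of the pathway, lower (21.7, 13.6 and 13.5). Of 5 genes for the uptake, release or methylation of selenium compounds, 2 passed the filter. Lrp1, a receptor for lipoproteins and the Selenop protein, was at 404, 365 and 432 FPKM, and Inmt, a methyltransferase that accepts selenium compounds, was at 0.40, 1.71 and 1.41 FPKM, which rest on an estimated 5, 23 and 14 fragments. It passed the filter only through the particle-treated libraries, in which it was high. Cth and Cbs, the enzymes of transsulfuration through which the selenium of Se-Met passes to selenocysteine, were each below 0.5 FPKM in all 3 libraries, and Lrp2 was at 0.01.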

How the data were processed

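RNA from MC3T3-E1 cells was made into 3 libraries with the NEBNext Ultra kit and sequenced on an MGI T7 instrument. Adapter-bearing and low-quality reads were deleted by the authors, who aligned with HISAT2, sorted with SAMtools, counted per gene with HTSeq and deposited FPKM rounded to 2 decimals. The submitters' processing notes also list StringTie and mm9. How FPKM was made, its gene models and the use of strand are not given in the sources used here. The table holds no gene at 0 in every library.

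Groups were taken from the labels. The filter kept the 11137 of 15287 genes that reached 1 FPKM in any library. Differences in log2(FPKM + 1) of 1.5-fold and of 2-fold were counted. With 1 library per condition, and with FPKM in place of counts, neither a test nor a count model was run. Python 3.11.15 was used, with pandas 2.3.3, numpy 2.4.6, scipy 1.17.1 and matplotlib 3.10.9.

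For the depth, steps worth 1 fragment were sought in single-transcript genes of 350 to 1000 bases, after 150 bases were taken off each length (GENCODE M21 lengths, matched by RefSeq accession, for 98.0% of genes that passed). Of the low values used, 51.2%, 39.6% and 34.9% lay on a step in CTL, Ti and Ti+Se-Met, against 12.0%, 12.2% and 9.71% by chance, so depths and intervals are approximate. Nearly equal fits gave 13750000 to 14350000, 14600000 to 14950000 and 10300000 to 10750000 fragments. Reads without molecular identifiers are not independent molecules.

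All 34 genes are named, and so are genes of the other lists where they passed 1.5-fold in a comparison (at most 3 per list). Txn1, Prdx4, Glrx, Gpx7, Gpx8, Uggt1, Lrp1, Lrp2, Cth, Cbs and the cell markers were named after their values were seen. Protein sequences had been planned and were not used here. The genes and lists were chosen with earlier results of these data known. The steps were tested on simulated data.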

Additional observations from a re-analysis of the deposited data

How the results depend on the processing

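Pseudocounts of 0.1 and 5, no filter on low values, a filter on a mean of 5 FPKM, a 2-fold threshold and 3 scalings (TPM, median of ratios, upper quartile) were tried in turn. The sum without 3 genes and the scalings of the other lists were chosen after seeing the data. Of the 29 genes, the number past 1.5-fold between Ti and CTL was 12 as reported, 6 with a pseudocount of 5 and 3 at 2-fold. Between Ti+Se-Met and CTL it was 11 as reported, 5 with a pseudocount of 5, 7 with TPM and 4 at 2-fold. Between Ti+Se-Met and Ti it was 0 as reported and 1, lower, with a pseudocount of 0.1. At 2-fold, 7.26% of all genes passed between Ti and CTL and 5.96% between Ti+Se-Met and CTL. Rescaled to TPM, 5.85% of all genes were higher and 19.2% lower between Ti+Se-Met and CTL. Shares over all genes were not computed for the other pseudocounts. With TPM the median difference became 0.09 (0.0883) between Ti and CTL and -0.01 (-0.00507) between Ti+Se-Met and CTL. A larger pseudocount shrinks the difference of low genes by construction. The median between Ti and CTL was 0.18 with the upper quartile and 0.20 with a mean of 5 FPKM, against 0.30 as reported. Between Ti+Se-Met and Ti the median of -0.11 became -0.04 with the median of ratios and with the upper quartile. The other counts stayed within 1.5 times the reported count, and no gene past 1.5-fold as reported changed sign. With TPM, 34 of 93 values of single genes moved beyond their counting interval and 59 did not. These values cover the 31 listed genes. They include Gpx3 and Selenbp1, which did not pass the filter and whose intervals were too wide to be left.

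No paired analysis was possible because the 3 conditions had 1 library each, which also left nothing to leave out. Depth limits the low genes most, since Dio3 in CTL rests on 26 estimated fragments and Dio2 with Se-Met added on 46. Of the 34 genes, 8 overlap a gene on the opposite strand in the reference annotation, and whether their reads were told apart is not given in the sources used here.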
